A study of Homo sapiens with 18 samples.

Results

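The histone genes on chromosome 6 were examined for chromatin accessibility in Ccd18-Co, an established line of human colon fibroblasts. Peaks of open chromatin were taken as belonging to them where they lay on chromosome 6 and overlapped the body, or the 1 kb upstream, of a protein-coding gene whose symbol starts with H1-, H2AC, H2BC, H3C or H4C. This gave 72 peaks of the 334857 in the series, from 55 genes of the GENCODE release 44 annotation. Bulk ATAC-seq, which marks open chromatin by the places a transposase can reach and tag, was run on 18 libraries, in 3 groups of 6. Cells of the first group were unstimulated. Cells of the other two groups received 3 pulses of a cytokine mix, each of 72 h with 96 h of recovery, with TNF, OSM and IL-17A at 10 ng/ml and IL-1β at 0.1 ng/ml. After 1 week of rest they were given the solvent DMSO or 250 nM belinostat, an inhibitor of histone deacetylases, for 5 days, and chromatin was collected 2 weeks later. Doses were taken from the sample labels. The study's text names a different belinostat dose and, in places, a different IL-1β dose, so the doses behind these libraries are not settled here. The labels do not say what vehicle, handling or time in culture the unstimulated cells had, which limits both contrasts against them. All cells were of the same line, so the replicates carry no variation between donors, and the labels do not say whether the libraries of a group came from separate cultures. The p-values therefore measure the spread between these libraries, which may be technical.

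Histones are the proteins around which DNA is wound. H2A, H2B, H3 and H4 form the core of the nucleosome, and the linker histone H1 binds where DNA enters and leaves it. Most of the chromosome 6 genes are replication-dependent. They are transcribed mainly in S phase, when new DNA has to be packaged, within a nuclear structure called the histone locus body, and their mRNAs end in a stem-loop in place of a poly(A) tail. H2A and H2B genes often stand head to head around a shared promoter. Accessibility at a start site is a property of the chromatin and is not a measure of the amount of histone mRNA.

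The 55 genes formed 4 clusters when genes less than 200 kb apart were joined, and the 72 peaks fell in 3 of them, with 48, 6 and 18 peaks. A peak within 500 bp of the annotated start was found for 51 of the 55 genes, in 41 distinct peaks. Of these peaks, 9 served 2 or more genes, 19 genes in all, and each of the 9 joined at least an H2A with an H2B gene. A further 19 peaks lay in gene bodies away from a start and 12 in the upstream 1 kb. The 4 genes without a peak were H1-6, H2AC1 and H2BC1, which encode variants made in the testis, and H4C7. The peaks were wide, with a median of 670 bp against 275 bp for all peaks, and their median GC content was 51.7% (range 37.2 to 61.6%). Gene bodies are as annotated, and 5 of the 72 peaks also overlap the window of another protein-coding gene.

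The control regions of these genes are shown first, because the start peaks described below lie on them. The stretches were read from hg38 with GENCODE starts and are printed 5′ to 3′ on the named strand. Capitals mark matches, on either strand, to the searched words TATAAA (the TATA box), CCAAT (the CCAAT box), ATTTGCAT (the octamer, bound by the protein of POU2F1), TTTCGCGC and TTTGGCGC (E2F-type words), GGTCCG (a word of the element bound by HINFP at H4 genes) and TGANTCA (the AP-1 word), and matches may overlap. The strongest start peak of the H2A and H2B families covers the shared promoter of H2BC11 and H2AC11, given here as all bases between their starts (chr6:27132796-27133042, plus strand). The same kind of stretch is given for the testis pair H2AC1 and H2BC1 (chr6:25726563-25726776, plus strand), at which no peak was listed. For H1-4 (chr6:26156129-26156328) and H3C1 (chr6:26020251-26020450), which had the strongest start peaks of their families, the 200 bases before the start are on the plus strand. For H4C7 (chr6:26246997-26247196), which had no peak, they are on the minus strand.
H2BC11 and H2AC11, between the starts: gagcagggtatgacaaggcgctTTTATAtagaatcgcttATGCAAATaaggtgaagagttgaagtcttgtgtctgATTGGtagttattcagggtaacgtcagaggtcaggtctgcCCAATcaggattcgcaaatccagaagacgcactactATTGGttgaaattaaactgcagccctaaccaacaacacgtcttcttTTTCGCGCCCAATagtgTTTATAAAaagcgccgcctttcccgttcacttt
H2AC1 and H2BC1, between the starts: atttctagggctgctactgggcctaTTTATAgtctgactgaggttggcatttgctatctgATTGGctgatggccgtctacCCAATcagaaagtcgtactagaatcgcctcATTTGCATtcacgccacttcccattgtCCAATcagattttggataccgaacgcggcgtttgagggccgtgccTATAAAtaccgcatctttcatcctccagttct
H1-4, before the start: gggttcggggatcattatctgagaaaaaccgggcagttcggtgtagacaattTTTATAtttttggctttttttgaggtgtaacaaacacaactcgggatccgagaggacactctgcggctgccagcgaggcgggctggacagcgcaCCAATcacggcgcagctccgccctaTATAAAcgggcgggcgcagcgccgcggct
H3C1, before the start: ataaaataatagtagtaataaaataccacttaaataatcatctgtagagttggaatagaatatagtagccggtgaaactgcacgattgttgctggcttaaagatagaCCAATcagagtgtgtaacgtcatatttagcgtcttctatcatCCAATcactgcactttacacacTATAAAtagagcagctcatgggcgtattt
H4C7, before the start: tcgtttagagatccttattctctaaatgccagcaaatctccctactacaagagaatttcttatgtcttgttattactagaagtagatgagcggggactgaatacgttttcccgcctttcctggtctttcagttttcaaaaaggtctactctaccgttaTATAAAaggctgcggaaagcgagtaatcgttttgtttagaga

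The stretch between H2BC11 and H2AC11 held 4 CCAAT words, 1 octamer and 1 TTTCGCGC word in 247 bases, with a TATA box near either start. The testis pair without a peak held 3 CCAAT words, 1 octamer and 2 TATA boxes in 214 bases. Over RefSeq promoters (GRCh38.p14, 250 bases before to 50 after the start), 50 of the 55 genes had an entry, and 15345 protein-coding promoters were searched in all. TATAAA was found in 66% of the histone promoters against 9.63% of all promoters, CCAAT in 86% against 36.6%, and ATTTGCAT in 44% against 1.70%. The families differed in their words. The octamer stood in 9 of 11 H2A and 12 of 15 H2B promoters, in 1 of 8 H3 promoters, and in none of 6 H1 and 10 H4 promoters. That H3 promoter is the one listed for H3C4, whose RefSeq window is the same as that of H2AC7, so the match is counted under both families. The RefSeq starts of H3C4 and H2BC6 lie away from the GENCODE starts used for their peaks, and windows of head-to-head genes overlap. GGTCCG stood in 9 of 10 H4 promoters and in 1 of the 40 others, against 14.6% of all promoters. CCAAT was present in all 40 promoters of the H1, H2A, H2B and H3 genes and in 3 of 10 H4 promoters. TTTCGCGC was found in 22% against 0.834%, TTTGGCGC in 0 of 50 against 0.912%, and the AP-1 word in 1 of 50 against 5.74%. A match is a description of the letters and was not tested as a binding site.

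Libraries held 4661678 to 11352032 fragments in peaks. Totals were lowest after belinostat (4661678 to 6370845) and were 7077321 to 11352032 in unstimulated and 6488975 to 8066642 in DMSO libraries. The 72 peaks took 73 to 5383 fragments each over all libraries, with a median of 1248, and 1 of them had a count of 0 in any library. The line carried accessible fibroblast genes. Start peaks were listed for 11 of 12 fibroblast markers, with a median of 17.4 CPM per kb (TMM-scaled CPM divided by the length of the peak in kb) in unstimulated libraries and 68.0 at COL1A1, which encodes a collagen I chain. Of the markers of other cell types, 5 of 6 epithelial, 2 of 5 immune and 3 of 4 endothelial genes had a start peak, with medians of 4.13, 5.37 and 1.84 CPM per kb, and the highest was KRT8, a keratin gene, at 29.7. The defining immune marker PTPRC, the endothelial marker CDH5 and the fibroblast marker THY1 had none.

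In unstimulated cells, start peaks of the histone genes were well open. Their median level was 22.3 CPM per kb over 41 peaks, against 17.1 over the 13629 start peaks of protein-coding genes and 2.86 over all peaks, and 29 of the 41 exceeded that protein-coding median. Levels spread by family. The start peak shared by H2AC11 and H2BC11 was the strongest, at 52.8 ± 4.46 CPM per kb (SD, n = 6), and the weakest was that of H4C9, at 3.56 ± 0.772. Among linker histone genes, levels ran from 11.0 ± 2.05 CPM per kb at H1-5 to 30.5 ± 3.10 at H1-4. Among H3 genes they ran from 6.88 ± 0.987 at H3C7 to 29.4 ± 2.84 at H3C1, and among H4 genes up to 28.3 ± 1.28 at H4C1. The weakest start peaks of the H2A and H2B families, at H2AC14 (17.7 ± 1.30) and H2BC6 (16.6 ± 1.37), stood above the median of the 11 H4 peaks, 11.9. The H2BC6 peak is that of the GENCODE start. The RefSeq start of H2BC6 lies in a weaker peak of 960 bp, 11252 to 12211 bp downstream and counted as a body peak. In unstimulated libraries that peak had log2 CPM of 3.26 to 3.90, and the GENCODE start peak 4.29 to 4.60. The 9 shared start peaks had a median of 26.8 CPM per kb and the 32 of a sole gene 20.3.

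**Figure D1:**
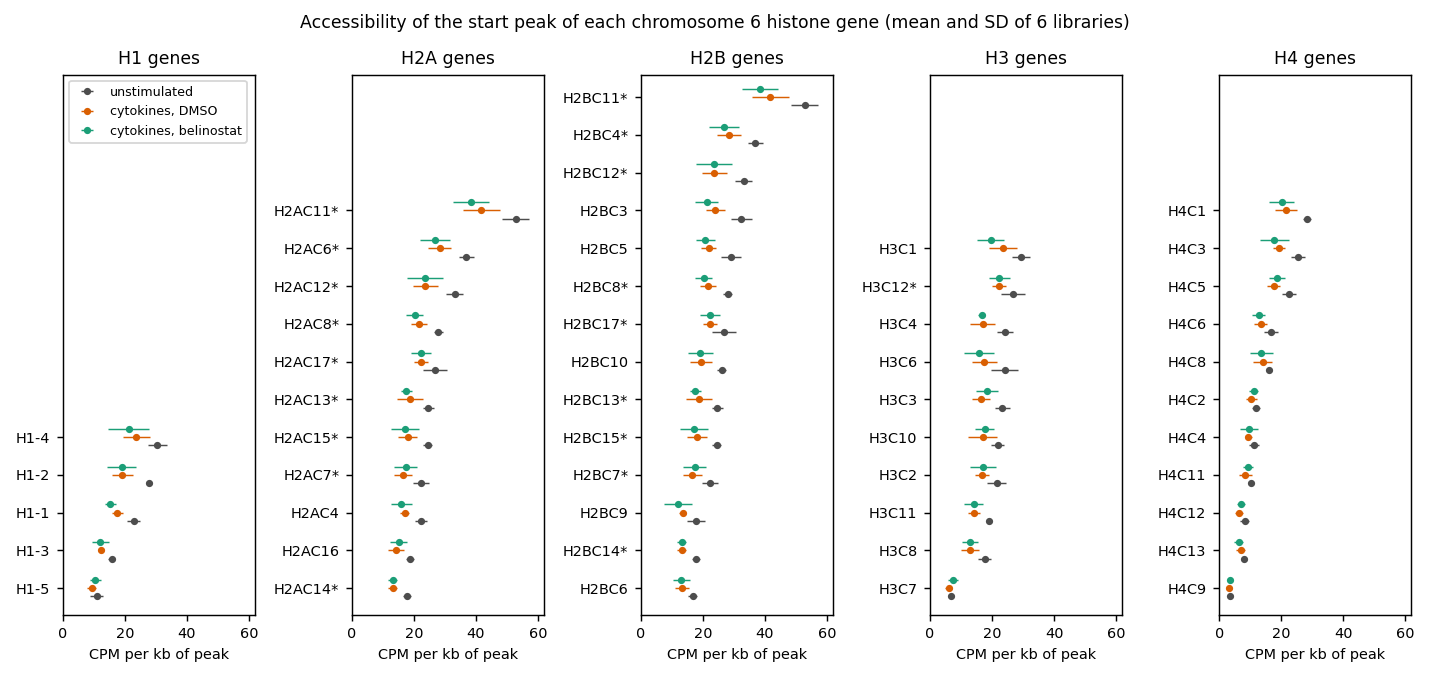
Accessibility of the start peak of each of 51 histone genes in CPM per kb of peak (x axis) in the 3 groups, with genes ordered in each family by the unstimulated level; points are means of 6 libraries, bars are SD, and an asterisk marks a start peak shared with another histone gene. The H2AC11 and H2BC11 peak is farthest to the right and the H4C9 peak farthest to the left; unstimulated means lie to the right of the DMSO means for all 51 genes on this TMM scale, a difference that shrinks or turns with loess offsets (see the text).

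Histone genes are repeated, and reads that map to several copies are a limit here. The share of 50-base stretches with another exact copy in the genome was 0 in 51 of the 72 peaks and above 10% in 9. It reached 37.6% in the H4C12 start peak and 34.9% in the H4C11 one, and was 34.5% at H2BC13 and H2AC13 and 31.1% at H2AC14 and H2BC14. The 6 start peaks above 10% had a median level of 21.1 CPM per kb, against 22.3 for the other 35. How reads were shared between copies was not measured, and counts at these peaks are uncertain for that reason.

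The cytokine contrast, DMSO against unstimulated libraries, asks what was left in the chromatin weeks after the pulses. TMM scaling sets 1 factor per library, from peaks taken as mostly unchanged, whereas loess offsets also remove trends of a library with peak abundance. With TMM, nearly all histone peaks were lower in DMSO libraries. The fitted log2 fold change was below 0 for 71 of the 72, with a median of -0.37 against 0.13 over all peaks, and 41 of the 72 closed (lower at an adjusted p under 0.05, edgeR's quasi-likelihood test with Benjamini-Hochberg adjustment over all peaks), which is 56.9%, against 9.73% of all peaks. None opened, against 9.51% of all peaks and 2.47% of the start peaks of protein-coding genes. None was higher at an unadjusted p under 0.05, and none opened with DESeq2. Most of the fall was lost when library trends with abundance were removed. With loess offsets 53 of the 72 were below 0, the median was -0.06, and 1 closed, against 1.49% of all peaks, while 0 opened against 3.26%. The median was then -0.03 in the 41 start peaks (27 below 0) and -0.10 in the 19 body peaks (14 below 0). In the 12 upstream peaks it stayed at -0.25, with all 12 below 0, though these were weaker, with a median average log2 CPM of 1.57. The histone median minus that of all peaks was -0.50 with TMM, -0.51 with library totals, which raise the median of all peaks to 0.34, and -0.15 with loess offsets. In bulk chromatin, fewer cells with an open site and a less open site in each cell cannot be told apart.

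Among the linker histone genes 4 of 5 start peaks closed, with log2 fold changes from -0.53 to -0.24. Beside this count, 9.73% of all peaks and 55.6% of the protein-coding start peaks closed. At H1-4, log2 CPM ran from 3.89 through a median of 4.21 to 4.31 in unstimulated libraries and from 3.55 through 3.73 to 4.24 in DMSO libraries. The DMSO values lay lower but overlapped the unstimulated ones through replicate 3, the highest of its group. The fitted change was -0.37 ± 0.12 on the log2 scale (SE; adjusted p = 0.0243 by edgeR), and the call was lost without unstimulated replicate 1, 4 or 6 or DMSO replicate 4. At H1-5, the weakest H1 start peak, the change was -0.24 ± 0.16 (adjusted p = 0.258 by edgeR), with the groups overlapping.

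Of the H2A start peaks 10 of 11 closed, and of the H2B ones 13 of 14, with medians of -0.39 and -0.40 on the log2 scale. These counts share 9 peaks. The H2A and H2B start peaks had a median average log2 CPM of 4.55 and 4.64. Of all peaks 9.73% closed, but 79.1% did in the strongest of 20 abundance bins (3.82 and above, described below), with a median of -0.37. The shared peak of H2AC11 and H2BC11 had log2 CPM of 5.48, 5.67 and 5.85 (lowest, median, highest) in unstimulated libraries and of 5.08, 5.36 and 5.61 in DMSO libraries. The groups overlapped slightly. Its log2 fold change was -0.34 ± 0.10 (adjusted p = 0.0142 by edgeR), lost without unstimulated replicate 6 or DMSO replicate 1 or 4, and turned to 0.06 with loess offsets. The shared peak of H2AC14 and H2BC14 ran from 4.16 through 4.32 to 4.41 in unstimulated and from 3.69 through 3.90 to 4.04 in DMSO libraries, without overlap. Its change was -0.43 ± 0.12 (adjusted p = 0.00560 by edgeR), and 31.1% of its 50-base stretches have another copy. At the GENCODE start of H2BC6 the change was -0.34 ± 0.12 (adjusted p = 0.0315 by edgeR), and turned to 0.02 with loess offsets. The call was lost when any of 6 libraries (unstimulated 1, 3 and 6, DMSO 1, 4 and 5) was left out.

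H3 and H4 start peaks gave the smaller shares, 7 of 10 closed for H3 and 5 of 11 for H4, and the difference between families was not tested. These peaks were also weaker, with a median average log2 CPM of 3.62 and 3.63, beside 4.55 and 4.64 in H2A and H2B. Of all peaks, 79.1% closed in the strongest abundance bin and 47.4% in the next. The part of abundance in the family shares was not tested. H3C1, which encodes a canonical H3, had log2 CPM of 4.24, 4.41 and 4.62 in unstimulated and of 3.72, 4.07 and 4.52 in DMSO libraries. Of the 6 DMSO libraries, 5 lay below the unstimulated range and replicate 3 lay inside it. Its change was -0.33 ± 0.12 (adjusted p = 0.0347 by edgeR), lost without unstimulated replicate 1, 4 or 6 or DMSO replicate 1, 4, 5 or 6, and 0.02 with loess offsets. H4C1 had log2 CPM of 4.77, 4.84 and 4.94 in unstimulated and of 4.27, 4.43 and 4.87 in DMSO libraries. Of its 6 DMSO libraries, only replicate 3 reached the unstimulated range, and the change was -0.39 ± 0.11 (adjusted p = 0.00882 by edgeR). At the weakest start peaks of these families, H3C7 (-0.18 ± 0.15, adjusted p = 0.385 by edgeR) and H4C9 (-0.16 ± 0.18, adjusted p = 0.565), groups overlapped and the sign turned with loess offsets, to 0.12 and 0.05.

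The 3 largest called falls among peaks averaging 1 or more on the log2 CPM scale were all narrow peaks away from a start. The largest lay 676 to 907 bp upstream of H3C2 (chr6:26032775-26033006), in the gap before H2AC4. It is printed whole, from the plus strand of hg38, because it was the only histone peak that closed with loess offsets too, and none of the 7 words was found in it.
H3C2 upstream peak: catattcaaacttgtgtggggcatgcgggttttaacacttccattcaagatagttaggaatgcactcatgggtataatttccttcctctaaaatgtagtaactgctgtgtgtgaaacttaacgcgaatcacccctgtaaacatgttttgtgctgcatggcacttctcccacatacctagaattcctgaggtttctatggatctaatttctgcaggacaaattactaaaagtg

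In this peak log2 CPM ran from 1.35 through 2.00 to 2.40 in unstimulated, from 0.58 through 1.08 to 1.74 in DMSO and from 1.06 through 1.68 to 2.51 in belinostat libraries. DMSO libraries were the lowest as a group, with some overlap, and belinostat libraries spread over both ranges. The change in the cytokine contrast was -0.90 ± 0.21 (adjusted p = 0.00185 by edgeR), and -0.74 ± 0.21 with loess offsets (adjusted p = 0.0264). The call held in all 25 alternatives. The next largest falls were a peak 735 to 925 bp upstream of H3C6 (-0.59 ± 0.22, adjusted p = 0.0444 by edgeR) and a 208 bp peak inside H2BC11, 725 to 932 bp from its start (-0.56 ± 0.14, adjusted p = 0.00340). The H3C6 call was lost in 13 of 25 alternatives, among them leaving out unstimulated replicate 1, 2, 4 or 6 or DMSO replicate 1, 2, 5 or 6, and that of the H2BC11 peak with loess offsets alone.

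DMSO values lay wholly below the unstimulated ones for 10 of the 72 peaks, against 3.82% of all peaks. They lay wholly above for 0, against 7533 of all 334857 peaks. The 10 were the start peaks of H1-2, H1-3, H2AC4, H2BC3, H2BC5, H3C3 and H3C11, the shared ones of H2BC4 with H2AC6 and of H2AC14 with H2BC14, and an upstream peak of H2AC16 that was not called (adjusted p = 0.234 by edgeR). In all other peaks at least 1 DMSO library reached the unstimulated range. Among DMSO libraries, replicate 3 had the highest mean log2 CPM over the 41 start peaks, 4.09, beside 3.62 to 3.86 in the other five and 4.09 to 4.28 in unstimulated libraries. Without it 45 peaks closed, and without unstimulated replicate 1 or DMSO replicate 1 it was 27, without DMSO replicate 4 it was 26 and without unstimulated replicate 6 it was 25.

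**Figure D2:**
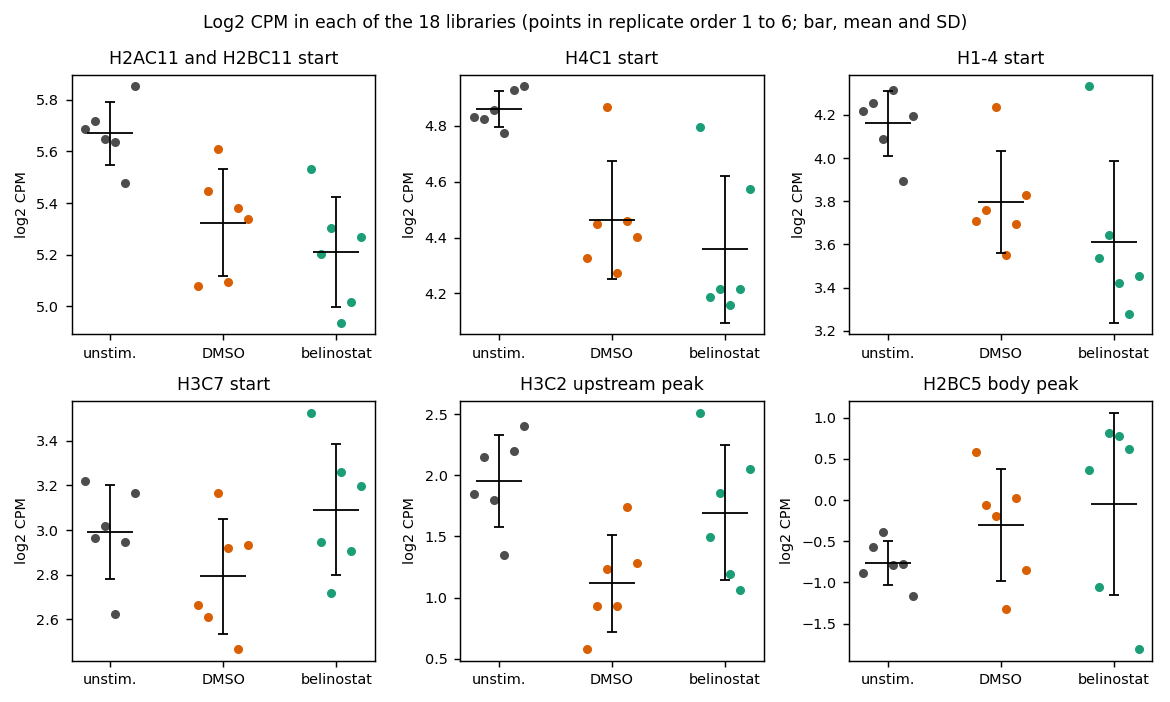
Log2 CPM (y axis) of 6 histone peaks in each of the 18 libraries, by group on the x axis; points stand in replicate order, the long bar is the mean and the whisker the SD of 6 libraries. The start peaks of H2AC11 with H2BC11, H4C1 and H1-4 lie lower in DMSO and belinostat libraries than in unstimulated ones on this TMM scale, except DMSO replicate 3 and belinostat replicate 1, and the H3C7 start peak overlaps in all groups; with loess offsets the change between DMSO and unstimulated libraries is -0.02 at H4C1 and -0.04 at H1-4 and turns to 0.06 at H2AC11 with H2BC11.

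Strong peaks of the whole table fell in the same way, so the histone peaks were set beside peaks of like abundance. All peaks were cut into 20 bins of equal size by average log2 CPM, and 47 of the 72 histone peaks lay in the top 2 bins. There, 37 of the 47 closed in the cytokine contrast, 63.3% of all 33486 peaks of these bins closed, and the medians were -0.38 and -0.36 on the log2 scale. Openings were rare in these bins, at 0.355% of all their peaks, so a lack of them is not particular to histone peaks. Over all bins, 53 of the 72 histone peaks lay below the median of their bin, by a median of 0.05 (difference of member and bin, -0.05). Of the protein-coding start peaks, 55.6% closed (median -0.33), beside 31 of 41 (75.6%) of the histone ones (median -0.38). The share of a library's fragments held by its 10000 strongest peaks moved with the same groups: it was 35.5 to 39.2% in unstimulated, 32.2 to 35.3% in DMSO and 28.7 to 34.9% in belinostat libraries. It was also highest in DMSO replicate 3 and belinostat replicate 1 within their groups. Its part in the result was not tested.

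**Figure D3:**
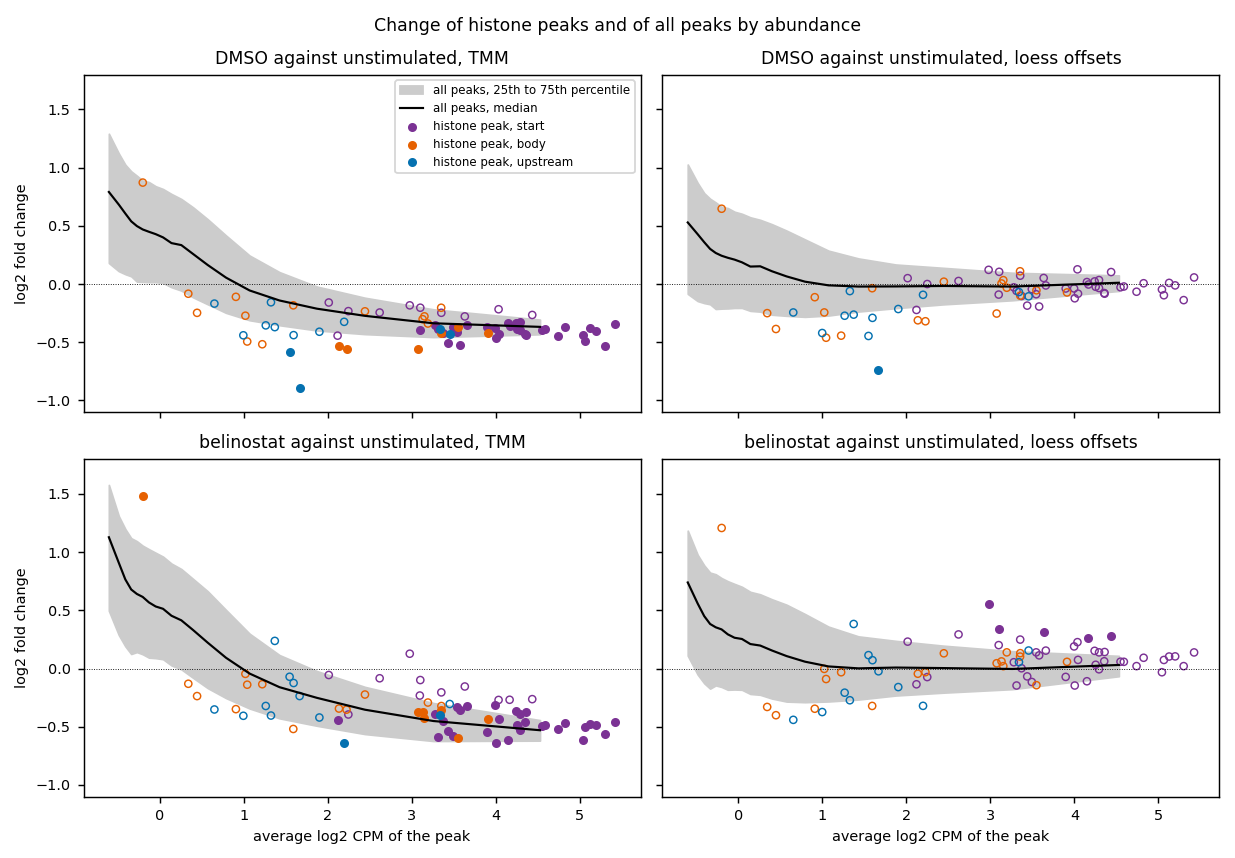
Log2 fold change (y axis) against average log2 CPM (x axis) for the 72 histone peaks, coloured by place and filled where called at an adjusted p under 0.05, over the median and the 25th to 75th percentile of all peaks in 20 abundance bins; rows are DMSO and belinostat libraries, each against unstimulated ones, and columns are scalings. With TMM both the curve of all peaks and the histone peaks are lower at higher abundance, and with loess offsets the curve is flat above an average of about 1 and the histone peaks spread around 0, with 1 filled point in the cytokine contrast.

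**Figure D4:**
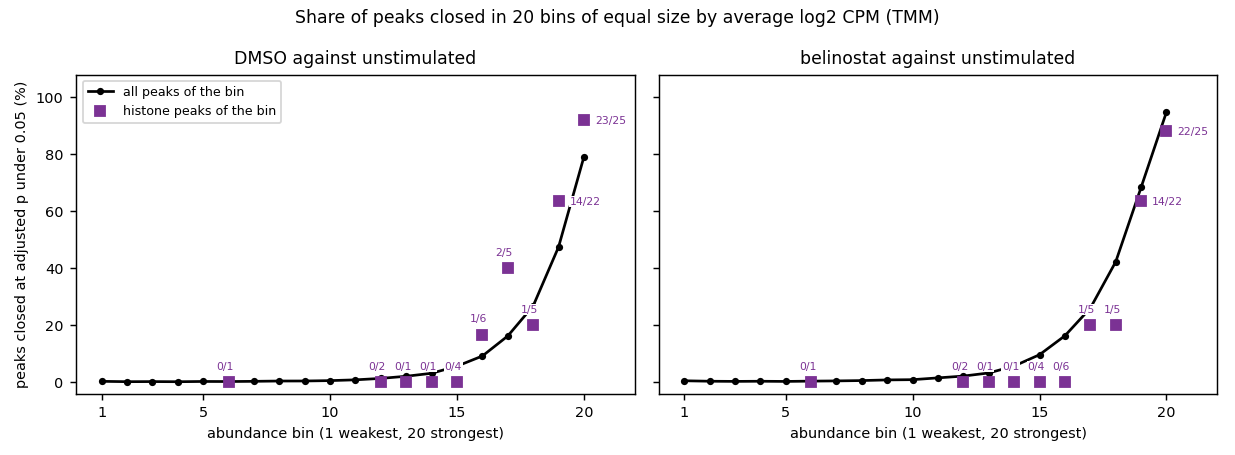
Percent of peaks closed with TMM scaling (y axis) in each of 20 abundance bins (x axis), for all peaks (line) and for the histone peaks (squares, with closed over present), in 2 contrasts. In the top bin 23 of 25 histone peaks closed in the cytokine contrast and 22 of 25 in the contrast of belinostat with unstimulated libraries, beside 79.1% and 94.8% of all peaks of that bin; with loess offsets 1 and 0 of the 72 closed.

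The belinostat contrast, belinostat against DMSO libraries, asks whether the inhibitor of the enzymes that remove acetyl groups from histones left a mark on these loci. No histone peak was called. None opened, against 0.607% of all peaks, and none closed, against 1.75%, by edgeR or DESeq2. At an unadjusted p under 0.05, 4 of the 72 were higher and 1 lower. The median was -0.01 on the log2 scale against 0.01 over all peaks, with a range from -0.34 to 0.66. With loess offsets 56 of the 72 were above 0, the median was 0.12, and 1 opened, against 1.09% of all peaks. Within their abundance bins, 55 of the 72 lay above the bin median, by a median of 0.10 on the log2 scale with either scaling.

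Among the families, the start peaks of H2A, H2B and H1 genes had medians of -0.08, -0.08 and -0.04 and those of H3 and H4 genes 0.00 and 0.04 on the log2 scale with TMM. With loess offsets 0 of 11 H2A and 1 of 14 H2B start peaks were below 0. The H3C2 upstream peak had the smallest adjusted p (0.111 by edgeR), with a change of 0.66 ± 0.23. This contrast and the cytokine contrast share the DMSO libraries, so its higher value here and its lower one there are not independent. The peak opened with loess offsets was the start peak of H3C7, which also reaches the 1 kb before H2BC9. It had log2 CPM of 2.47, 2.79 and 3.17 in DMSO and of 2.72, 3.07 and 3.53 in belinostat libraries. The ranges overlapped over most of their length. The change was 0.31 ± 0.15 with TMM (adjusted p = 0.284 by edgeR) and 0.43 ± 0.13 with loess offsets (adjusted p = 0.0453).

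The residual contrast, belinostat against unstimulated libraries, asks what differed from unstimulated cells after both treatments. It shares its unstimulated libraries with the cytokine contrast. Here 38 of the 72 histone peaks closed, against 13.7% of all peaks. There was 1 that opened, against 16.8% of all peaks and 4.10% of the protein-coding start peaks. The median was -0.37 on the log2 scale against 0.20 over all peaks, and 69 were below 0. With loess offsets 0 closed, against 3.66% of all peaks, and 5 opened, a share near the 7.16% of all peaks. The median was then 0.06 against 0.14 over all peaks. In the top 2 abundance bins 36 of 47 histone peaks closed, beside 81.6% of all peaks there, and the medians were -0.42 and -0.50. Of all peaks of these bins, 0.302% opened. Among start peaks 30 of 41 closed (73.2%), beside 65.1% of the protein-coding ones. By family, 4 of 5 H1, 10 of 11 H2A, 13 of 14 H2B, 8 of 10 H3 and 3 of 11 H4 start peaks closed. The families differ in abundance as given above. Of all peaks, 94.8% closed in the strongest abundance bin and 68.4% in the next, and the difference between families was not tested.

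The 3 largest called falls were at H1-2, H3C6 and H2BC3. The H1-2 peak, of 154 bp upstream of the start, had log2 CPM of 2.03, 2.46 and 2.96 in unstimulated and of 1.28, 1.90 and 2.24 in belinostat libraries. Its change was -0.64 ± 0.18 (adjusted p = 0.00458 by edgeR), with a small overlap of the groups. The H3C6 start peak ran from 3.93 through 4.31 to 4.66 in unstimulated and from 3.01 through 3.60 to 4.29 in belinostat libraries, which overlapped through replicates 1 and 6 (-0.64 ± 0.13, adjusted p = 6.12e-05 by edgeR). The H2BC3 start peak, of 5.24, 5.29 and 5.57 in unstimulated, had 4.27, 4.79 and 5.03 in belinostat libraries, with no overlap (-0.61 ± 0.11, adjusted p = 3.88e-06 by edgeR). With loess offsets none of the 3 was called, at -0.32, -0.15 and -0.03. Belinostat values lay wholly below the unstimulated ones for 6 of the 72 peaks, against 6.16% of all peaks. They lay wholly above for 0, against 8655 of all 334857 peaks. The 6 were the start peaks of H1-1, H2BC3 and H3C4 and the shared ones of H2BC8 with H2AC8, H2BC13 with H2AC13, and H2AC14 with H2BC14.

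The one peak that opened lay inside the annotated body of H2BC5, 6065 to 6393 bp downstream of its start (chr6:26164187-26164515). It was below the abundance minimum for named peaks, at an average log2 CPM of -0.20, and is named here after its values were seen. Log2 CPM was -1.16, -0.78 and -0.39 in unstimulated and -1.81, 0.49 and 0.82 in belinostat libraries. In 4 belinostat libraries it was above all unstimulated ones, and in replicate 6, with a count of 0, it was below them. The change was 1.48 ± 0.47 (adjusted p = 0.0116 by edgeR), the call was lost without belinostat replicate 4, and with loess offsets the adjusted p was 0.0774. The 5 start peaks that opened with loess offsets were those of H4C2, H4C5, H4C11 and H3C7 and the peak shared by H3C12, H2AC17 and H2BC17, with changes of 0.26 to 0.56. Belinostat replicate 1 had the highest mean log2 CPM over the start peaks in its group, 4.15, beside 3.51 to 3.90 in the other five. Without it 48 peaks closed with TMM scaling.

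**Figure D5:**
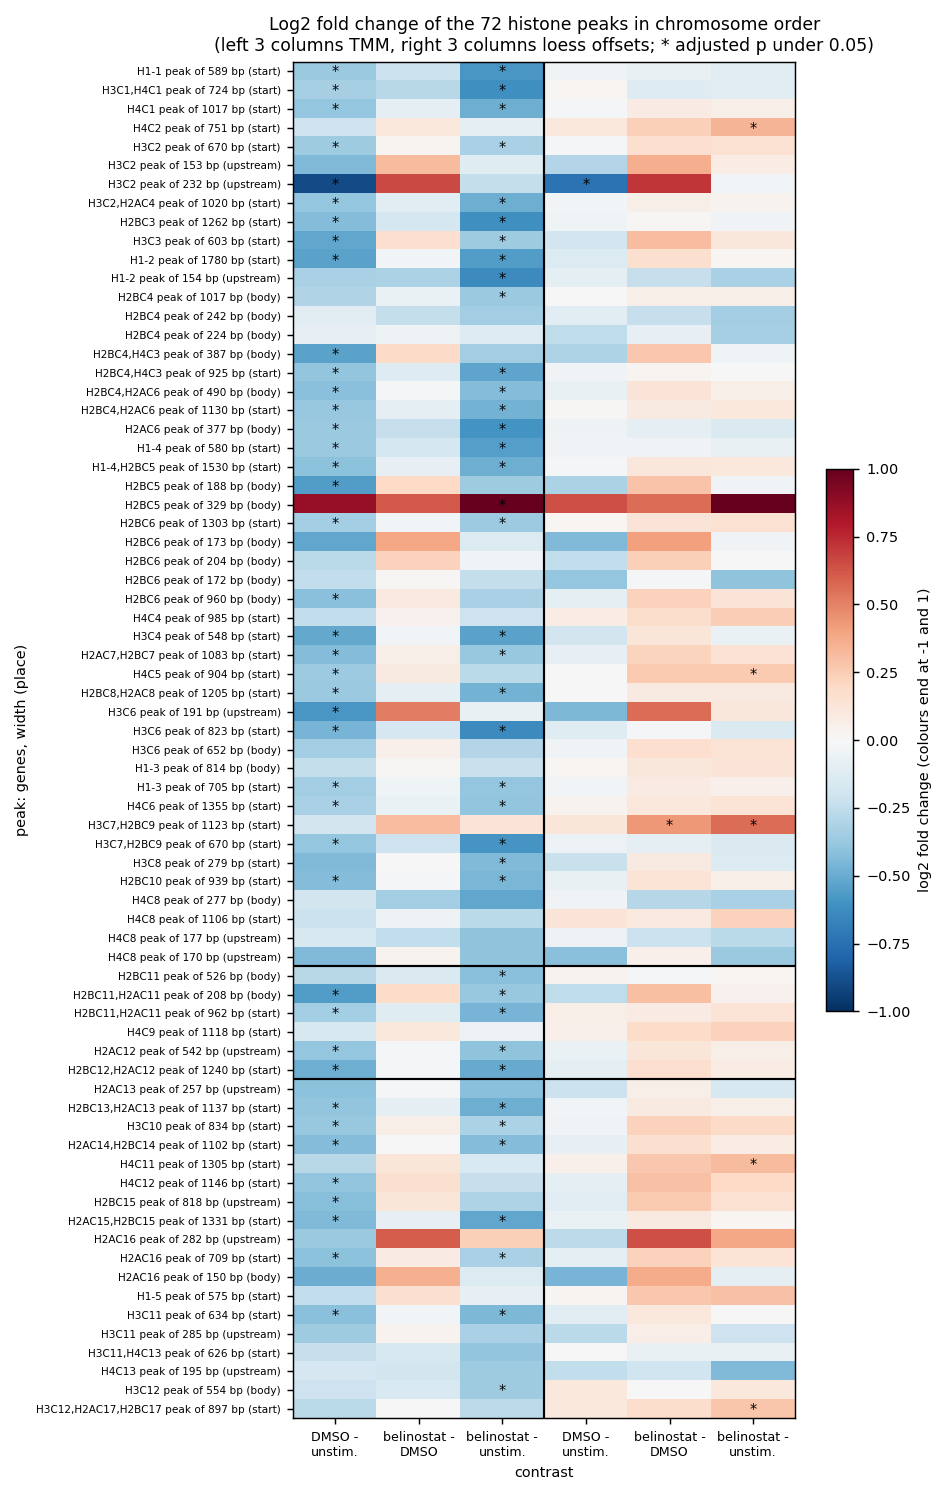
Log2 fold change (colour, cut at -1 and 1) of the 72 histone peaks in chromosome order (y axis) in 3 contrasts with TMM (left) and loess offsets (right); asterisks mark an adjusted p under 0.05 and black lines part the clusters. In the TMM columns against unstimulated libraries, 41 and 38 of 72 peaks carry an asterisk for a fall, 8 and 7 of them among the 18 peaks of the last cluster, and 1 residual asterisk is a rise, no asterisk stands in the TMM column of belinostat against DMSO, and with loess offsets the asterisks are 1, 1 and 5.

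Other genes that encode or handle histones are given for comparison. Lists are described by counts beside the start peaks of all protein-coding genes, of which 55.6% closed in the cytokine contrast and 65.1% in the residual one. The list peaks were stronger, with median average log2 CPM of 4.35 to 4.83 against 3.98. In the strongest abundance bin 79.1% and 94.8% of all peaks closed, so list shares above 55.6% and 65.1% are not particular to the lists. Of 13 replication-dependent histone genes off chromosome 6, in 10 distinct start peaks, 8 peaks closed in the cytokine contrast and 10 in the residual one, with medians of -0.36 and -0.45 on the log2 scale. Of 10 genes of replacement histones, which are made also outside S phase, 6 and 9 start peaks closed (medians -0.37 and -0.58). H2AZ2, a gene of the variant H2A.Z, fell by 0.34 and H2AJ, of H2A.J, by 0.44 in the cytokine contrast. H3-3B, a gene of H3.3, was at -0.13 ± 0.18 (adjusted p = 0.638 by edgeR). Its start peak was much weaker, with a mean log2 CPM of 2.11 in unstimulated libraries, beside 6.42 at H2AZ2 and 5.04 at H2AJ. Of 17 genes for the transcription and 3′ end processing of histone mRNA, 13 and 16 closed (medians -0.36 and -0.48). NPAT, the coactivator at the histone locus body, fell by 0.36, SLBP, which binds the stem-loop, by 0.39, and CASP8AP2, of the same body, by 0.31. HINFP, the factor of H4 promoters, fell by 0.34, POU2F1, which encodes OCT1, by 0.38, and CDK2, a kinase of S phase entry, was at -0.24 (adjusted p = 0.165 by edgeR). Of 13 S phase genes with a start peak, 11 and 12 closed (medians -0.34 and -0.47), among them MCM3 of the replicative helicase and PCNA, the sliding clamp. In the cytokine contrast the S phase count was 6 without unstimulated replicate 4 or 6 or DMSO replicate 4, and 7 without DMSO replicate 1 or 5. The count of transcription and 3′ end genes was 7 without unstimulated replicate 6. With TMM no start peak of these lists was called in the belinostat contrast by edgeR, where 10 were lower at an unadjusted p under 0.05, and with loess offsets none closed in the cytokine contrast, where medians were 0.02 to 0.04. With loess offsets 1 of these start peaks opened in the belinostat contrast, that of H2AC18 and H3C14 (0.21, adjusted p = 0.0115 by edgeR), and 3 opened in the residual one, at H2AC18 with H3C14, H3C15 and CASP8AP2. Of all peaks, 1.09% opened in the belinostat contrast and 7.16% in the residual one with these offsets. Of the 13629 protein-coding start peaks, 227 and 1147 did.

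Peaks inside the clusters that belong to no histone gene were fewer and weaker. There were 22, with a median of 9.82 CPM per kb against 22.3 in the histone start peaks. The gap was smaller beside histone peaks away from a start, with medians of 12.7 in gene bodies and 15.5 upstream. In the cytokine contrast 4 of the 22 closed and 0 opened, with a median of -0.15 on the log2 scale. Of all peaks, 9.73% closed and 9.51% opened there. In the residual contrast 4 of the 22 closed and 2 opened, with a median of -0.20, beside 13.7% and 16.8% of all peaks. In the belinostat contrast none was called by edgeR, and 2 were higher at an unadjusted p under 0.05. With loess offsets none of the 22 was called in any contrast.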

How the data were processed

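Chromatin accessibility was measured by Omni-ATAC in 18 libraries of Ccd18-Co cells. The authors ran ENCODE's pipeline for ATAC-seq (trimming, alignment, build hg38), called peaks with MACS2, merged them into consensus peaks, removed blacklisted regions and deposited counts per peak and library, with genes assigned by ChIPseeker 1.34.1. No sample column was left unused (0). Groups came from the labels. Counts were fitted with edgeR 4.0.16 (R 4.3.3, limma 3.58.1) by the quasi-likelihood test, with 1 mean per group over all 18 libraries, TMM factors over peaks, and Benjamini-Hochberg adjustment over 334857 peaks. The authors' TMM used background bins, which were not used here. Their minimum, an average log2 CPM over -3, removed 0 peaks. Log2 CPM values carry a prior count of 2. Calls were made at an adjusted p under 0.05. Alternatives were loess offsets (span 0.3), library totals, TMM over 10 kb bins, DESeq2 1.42.0, an average log2 CPM over 0, an adjusted p under 0.01, a replicate block, only the groups compared, only peaks clear of other genes, and each library left out. The procedure was also run on simulated counts. These held no library trend with abundance, so that run cannot decide between the scalings. Peak starts were read as counted from 0 and are printed from 1. Peaks with values in each library are the 3 largest called rises and falls per contrast among peaks averaging 1 or more in log2 CPM, and the strongest and weakest start peak per family. The members and lists were chosen with earlier results of these data known. Library depth limits the precision of weak peaks. Not every control region's sequence is reported here.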

Additional observations from a re-analysis of the deposited data

Results flagged for a closer look

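In 51 checks of the highest and lowest library within groups of 6 (Dixon's test), 2 start peaks had a library set apart, and chance gives about 1 in 20. At H1-4, belinostat replicate 1 had a log2 CPM of 4.33, with the next library at 3.64. At H4C1, DMSO replicate 3 had a log2 CPM of 4.87, with the next at 4.46.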

How the results depend on the processing

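With TMM scaling 41 histone peaks closed in the cytokine contrast and 38 in the residual one. The numbers were 1 and 0 with loess offsets, 9 and 12 with library totals, 32 and 29 with TMM over 10 kb bins, 24 and 25 with DESeq2, 24 and 22 with an average log2 CPM over 0, and 17 and 25 at an adjusted p under 0.01. Residual openings, 1 with TMM, were 5 with loess offsets, 3 with library totals, and 0 with the abundance minimum or the stricter p. In the belinostat contrast 1 opened with loess offsets. Of the comparison lists, 38 start peaks closed in the cytokine contrast, 0 with loess offsets and 8 with library totals. Of the other cluster peaks 4 closed, and 0 with loess offsets, library totals, DESeq2 or the abundance minimum, and 1 with TMM over 10 kb bins. Loess offsets turned the sign of the cytokine change at H1-5 (0.026), H2BC11 with H2AC11 (0.056), H2BC6 (0.022), H3C1 (0.017), H3C7 (0.12) and H4C9 (0.050), and library totals at H3C7 (0.035) and H4C9 (0.055). The causes were not tested.

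Leaving out 1 library gave 25 to 45 closed in the cytokine contrast, 28 to 48 in the residual one, 0 to 1 opened in the belinostat and in the residual contrast, 24 to 42 in the lists and 0 to 7 in the other cluster peaks. Same-numbered libraries correlated at -0.18 to 0.15, with 5 of 18 pairs over 0.1 and 4 best with their own number, so the numbers do not pair them. A replicate block gave 42 closed in the cytokine and 41 in the residual contrast. Depth limits calls at weak peaks.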
